A study of Arabidopsis thaliana with 9 samples.

Results

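WRKY53 (locus AT4G23810, on chromosome 4 by its locus identifier) is a WRKY transcription factor of Arabidopsis thaliana, and its transcript was followed here across mutants of the histone deacetylase HDA6. The gene was picked by its symbol in the probe annotation. It was read by 1 probe set of 22746 tested, and it is 1 of 13286 loci with a named probe set. The measurements came from 9 single-colour Affymetrix ATH1 arrays hybridised with labelled RNA of whole Col-0 plants, which had grown for 35 days on plates of Murashige and Skoog medium at 21 ºC in constant light. The groups were 3 arrays titled HDA6 null mutant, 3 arrays titled HDA6 amino acid substitution, and 3 arrays titled double transformant, given as Columbia with no HDA6 mutation named. Night humidity is given as 35% for double transformant 1 and as 53% for all other arrays. Both mutant groups carry an EMS-induced HDA6 mutation and have rts1-1 as their source in the labels, so only the titles tell them apart, and whether they are separate alleles or lines is not given. The labels do not say which transgenes the double transformant carries, nor whether the mutants carry them too. The rts1 mutants are known from a screen for loss of RNA-directed silencing of a transgene promoter. Replicates are not stated to be separate cultures, so p-values cover only array-to-array spread, possibly technical.

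WRKY proteins bind short DNA elements called W-boxes through a zinc-binding domain that carries the letters WRKY. In Arabidopsis leaves WRKY53 is known as an early, positive regulator of senescence, the ordered breakdown of leaf cells, and its transcript also responds quickly to salicylic acid, hydrogen peroxide and pathogens. Its gene is known to be marked by histone methylation as senescence begins. HDA6 removes acetyl groups from histones and is needed for the silencing of transgenes, repeats and rRNA genes, and plants lacking HDA6 are known to senesce late.

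The WRKY53 probe set gave a dim signal in these plants, and its brightest arrays were those of the substitution mutant. The amount of its transcript relative to other genes was not measured. Its MAS5 signal, a linear brightness scaled to a common level on each array, was 12.33, 3.97 and 0.81 in null mutant arrays 1, 2 and 3. It was 36.22, 16.2 and 14.85 in the substitution arrays, against 2.0, 4.38 and 2.59 in the double transformant arrays. The 3 substitution arrays lay above the other 6, while the null mutant arrays spread over and beyond the range of the double transformant. The share of all probe sets with the 3 substitution arrays above the other 6 was not computed. Taken by pairs of groups, they lay above the double transformant for 10.6% of probe sets and above the null mutant for 5.6%. Group means were 5.7 ± 5.95 in the null mutant, 22.4 ± 12 in the substitution mutant and 2.99 ± 1.24 in the double transformant (SD, n = 3 each).

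The measured WRKY53 signals were therefore highest in the substitution mutant on these arrays, but no comparison of WRKY53 was called, as given below. The null mutant and the double transformant are given no order, since their arrays overlapped and the null mutant mean rested on array 1. Each array's median signal lay between 31.8 and 36.8, and WRKY53 was below that median on 8 of 9 arrays. It stood at the 32.6, 21.5 and 3.6 percentile of all probe sets in the null mutant, at the 51.1, 37.5 and 37.4 percentile in the substitution mutant, and at the 15.8, 23.4 and 16.3 percentile in the double transformant.

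How far such signals stand above background was read from 27 control probe sets for 5 bacterial transcripts (dap, lys, phe, thr and trpn) that plants do not make. This comparison was chosen after the values were seen, and the labels do not say whether such transcripts were added. Over the 9 arrays the controls ran from 0.08 to 16.9, and the brightest of them on each array was never below 7.05. WRKY53 exceeded all 27 controls on each of the 3 substitution arrays, where the brightest control reached 8.23, 7.57 and 7.05. On the other 6 arrays it lay below the brightest control. It exceeded 26, 22 and 6 of the 27 controls in the null mutant and 19, 20 and 13 in the double transformant. In the null mutant and the double transformant the signal thus lay within the range of probe sets with no plant target, and it is not taken as above background. The geometric mean of the WRKY53 signals was 20.6 in the substitution mutant, 2.13-fold a floor of 9.7 in the double transformant. That floor is the geometric mean of the brightest control of each array. For the null mutant the floor was 13.1, and the substitution mean stood at 1.57-fold that floor. These ratios carry no array-to-array spread, and control background was not taken off the substitution signals. They are therefore not lower limits of a change in the transcript. No fold is given for the null mutant over the double transformant, since both lay within the range of the controls.

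**Figure D1:**
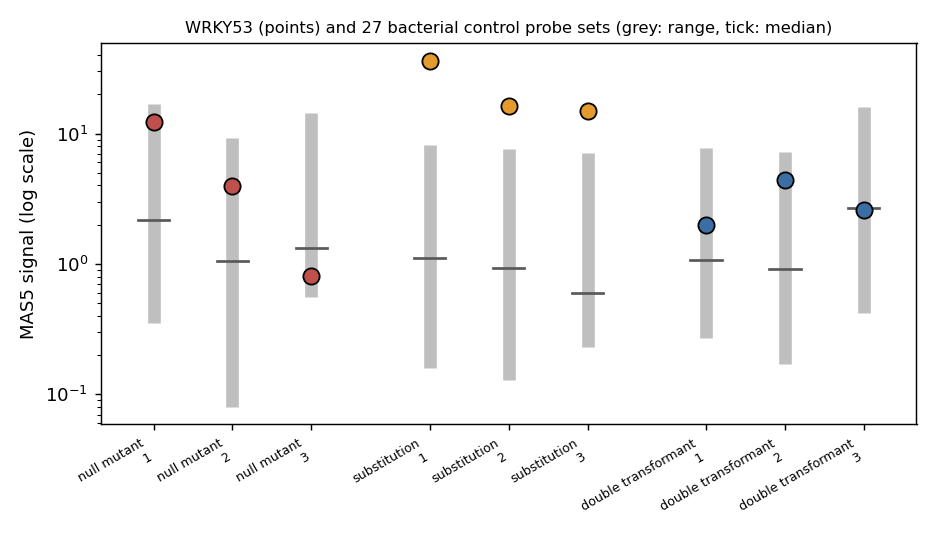
MAS5 signal of WRKY53 on each array (points, log scale) beside the range (grey bar) and median (dark tick) of 27 bacterial control probe sets on the same array. The 3 substitution arrays, at 14.85 to 36.22, are the only ones where WRKY53 lies above every control.

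The comparison of the substitution mutant with the double transformant asked whether WRKY53 changes with an altered HDA6 protein. WRKY53 was above the double transformant in 3 of 3 arrays, and its mean stood at 2.13-fold the control floor given above. The fitted difference of the measured log2 signals, after an offset of 4.03 was added to every signal, was 1.84 ± 0.47 (SE, 95% interval 0.80 to 2.87). It is not a fold of the transcript, because the double transformant signals lay in the control range. The adjusted p of the limma fit (Benjamini-Hochberg over all probe sets) was 0.12, so the difference was not called at an adjusted p under 0.05. In this comparison 0.62% of probe sets were called higher and 0.127% lower. The 3 arrays of the substitution mutant all lay above those of the double transformant for 10.6% of all probe sets, so that pattern by itself is common here. An exact two-sided permutation test over arrays gave p = 0.1, the smallest that 3 against 3 arrays allow, and 0.2 adjusted over the 4 comparisons of WRKY53, beside an unadjusted limma p of 0.00234. Bulk RNA cannot tell a change in the number of cells that make the transcript from a change in RNA per cell.

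Between null mutant and double transformant arrays WRKY53 overlapped and was not called (limma adjusted p = 0.867, exact permutation p = 0.8). With WRKY53 below the brightest control on all 6 arrays, no difference was shown and no direction is given. The sign of the fitted difference turned without null mutant 1, and also without the 3 arrays with rpt in the title (double transformant 1, null mutant 1 and substitution 3), a mark that the labels do not explain. In this comparison 0.659% of probe sets were called higher and 0.101% lower.

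With both mutant groups set together against the double transformant, WRKY53 overlapped between arrays and was not called (limma adjusted p = 0.286). An exact permutation test over 6 and 3 arrays gave p = 0.19, where 0.0238 is the smallest possible. No fold is given, as both the null mutant and the double transformant lay in the control range. Calls in this comparison covered 0.954% of probe sets higher and 0.237% lower.

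Set directly against the substitution mutant, the null mutant had lower measured WRKY53 signals. The substitution mean stood at 1.57-fold the control floor of the null mutant given above. The fitted difference of the measured log2 signals was -1.53 ± 0.47 (SE, 95% interval -2.57 to -0.50), with the null mutant signals in the control range. All 3 null mutant arrays lay below all 3 substitution arrays, as they did for 5.6% of all probe sets. The limma p was 0.00745 before and 0.628 after adjustment, and the exact permutation p was 0.1, again the smallest that the design allows. Here 0.0352% of probe sets were called higher and 0.0044% lower in the null mutant, so calls of any kind were few. The closest pair of arrays across these groups was null mutant 1 at 12.33 and substitution 3 at 14.85.

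**Figure D2:**
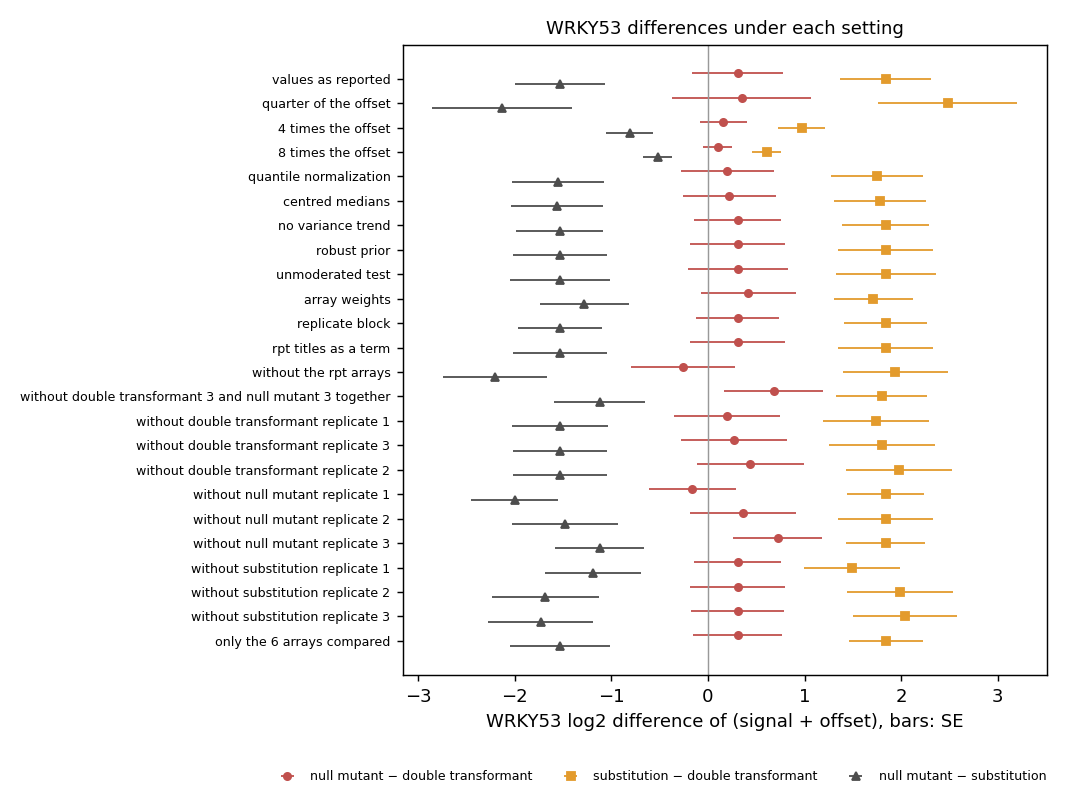
Fitted WRKY53 log2 differences of measured signals, with SE, for 3 comparisons (symbols) under each processing setting (rows). The substitution minus double transformant values stay between 0.61 and 2.48, those of the null mutant against the double transformant lie on both sides of 0, and those of the null mutant against the substitution mutant stay between -2.20 and -0.52. Null mutant and double transformant signals lay in the control range, so none of these is a fold of the transcript.

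Of 71 other WRKY loci in the annotation, 6 had a named probe set and are described here. None was called in any of the 4 comparisons, beside 0.0044% to 0.954% of all probe sets per comparison and direction. With so few genes a lack of calls says little. Their median log2 difference was -0.17 in the null and -0.11 in the substitution mutant against the double transformant, beside 0.02 and 0.00 over all probe sets. WRKY22, which acts in immune signalling and in senescence induced by darkness, had signals of 41, 27.6 and 17.1 in the null, 74.5, 20.4 and 23.5 in the substitution mutant, and 31.1, 28.7 and 23.1 in the double transformant. One array, substitution 1, stood apart for WRKY22, and the other 8 arrays overlapped. Its log2 difference in the substitution mutant was 0.25 ± 0.43 (limma adjusted p = 0.888). WRKY6, linked to senescence, defence and phosphate supply, had 30.6 ± 4.64 in the null mutant, 34.7 ± 4.19 in the substitution mutant and 34.1 ± 7.74 in the double transformant (SD, n = 3 each). WRKY42, a phosphate regulator, had its highest array at 4.32, in the double transformant, within the range of the bacterial controls.

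WRKY20, WRKY47 and WRKY1 (listed as ZAP1) had signals of at least 37.4 on every array. WRKY20 averaged 104 ± 16.6 in the null mutant, 95.5 ± 14.9 in the substitution mutant and 121 ± 16.5 in the double transformant (SD, n = 3 each), and its substitution arrays lay below those of the double transformant, as for 8.6% of probe sets (log2 difference -0.33 ± 0.17, limma adjusted p = 0.485). WRKY47 differed by -0.38 ± 0.26 in the null and -0.02 ± 0.26 in the substitution mutant. WRKY1 differed by -0.02 ± 0.14 in the null and -0.19 ± 0.14 in the substitution mutant. Other members of the WRKY group to which WRKY53 belongs (WRKY30, WRKY41, WRKY46, WRKY54 and WRKY70) were not analysed here.

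WRKY22, WRKY6 and WRKY42 are also on the list of genes reported as WRKY53 targets, as the members of that list with a named probe set. The best known target, the cysteine protease gene SAG12, and the catalase genes were not analysed here. Among genes reported or proposed to act on WRKY53, HDA15, a deacetylase related to HDA6, and WRKY22 were measured. HDA15 averaged 68.8 ± 23.6 in the null mutant, 53.3 ± 11.2 in the substitution mutant and 73 ± 20.3 in the double transformant (SD, n = 3 each), and it was not called.

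Of the senescence genes measured none was called in any comparison. Over all probe sets 0.0044% to 0.954% were called per comparison and direction, so the lack of calls among so few genes says little about them. Of 45 listed regulators 4 were measured, and of 53 listed senescence-associated genes 8, with SAG101 on both lists. The medians of the 8 were 0.02 in the null and 0.05 in the substitution mutant. EIN3, the ethylene transcription factor that promotes senescence, averaged 537 ± 23.7 in the null mutant, 480 ± 61 in the substitution mutant and 523 ± 57.8 in the double transformant (SD, n = 3 each). SAG101, a partner of the immune regulator EDS1, averaged 33.3 ± 11.4, 33.2 ± 5.15 and 29 ± 4.08 in the same groups. NOL, which encodes a chlorophyll b reductase needed for pigment breakdown, averaged 178 ± 19.3 in the null mutant, 166 ± 10.5 in the substitution mutant and 157 ± 23.6 in the double transformant.

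SAG29 is a sugar transporter gene of ageing leaves. Its signals were 0.98, 0.94 and 1.71 in the null and 1.25, 0.501 and 3.07 in the substitution mutant, against 18.1, 1.23 and 7.26 in the double transformant. Most of these lie in the range of the bacterial controls, and 1 double transformant array overlapped the mutants. SAG29 was not called in the null mutant (limma adjusted p = 0.404) or the substitution mutant (0.423), and no fold is given. YLS5, known as a gene of yellow leaves, differed by 0.03 ± 0.19 in the null and 0.26 ± 0.19 in the substitution mutant. The autophagy genes ATG8A, ATG8B, ATG8E and ATG8H, which mark the recycling of cell contents, differed by 0.02, 0.02, -0.22 and -0.55 in the null and by 0.22, 0.00, 0.02 and -0.19 in the substitution mutant. Senescence itself was not scored in these data.

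**Figure D3:**
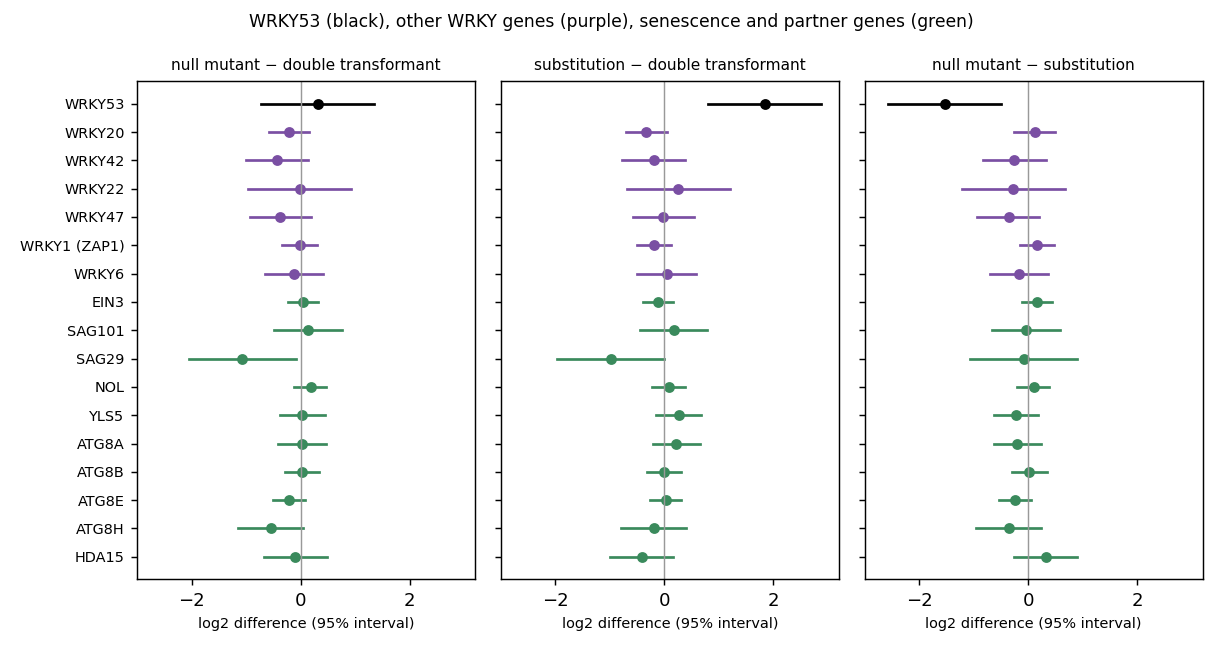
Log2 differences with 95% intervals in 3 comparisons (panels) for WRKY53 (black), 6 other WRKY genes (purple) and measured senescence or partner genes (green). The interval of WRKY53 is clear of 0 for the substitution mutant against the double transformant (0.80 to 2.87) and for the null mutant against the substitution mutant (-2.57 to -0.50). Null mutant and double transformant signals of WRKY53, like most signals of WRKY42 and SAG29, lay in the range of the bacterial controls, so their differences are of measured signals only.

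WRKY53 is also an early stress gene, and 9 members of a list of early stress and touch genes were measured. In the substitution mutant 2 were called lower and 0 higher, beside 0.127% and 0.62% of all probe sets. In the null mutant 0 were called, beside 0.101% lower and 0.659% higher. With both mutant groups together 2 were called lower and 0 higher, beside 0.237% and 0.954%. The list was chosen with earlier results of these data known, so these counts are a description and no test of the list. The medians were -0.28 in the null and 0.05 in the substitution mutant. STZ (ZAT10), a zinc finger gene induced by many stresses, had 33.7, 32.5 and 28.4 in the null, 580, 103 and 60.8 in the substitution mutant, and 30.6, 67.5 and 109 in the double transformant. As for WRKY53, its highest array was substitution 1. Its null mutant arrays also lay below all substitution arrays, as they did for 5.6% of all probe sets. That difference of STZ was -2.17 ± 0.65 on the log2 scale and was not called (limma adjusted p = 0.626). CML38, a calmodulin-like gene, had 60.7 on substitution 1 and at most 21.8 on the other arrays. Substitution 1 was the brightest array for 4 of the 9 list members and for WRKY53, against 9.89% of all probe sets. For CML37 (11.8) and PUB24 (80.2) it stood little above null mutant 1 (10.9 and 70.3). It was brightest for 0 of 8 senescence-associated genes and 0 of 2 salicylic acid and immune genes. Among the senescence regulators (1 of 4) and the other WRKY genes (1 of 6) the gene was WRKY22. Without substitution 1 the fitted difference of WRKY53 was 1.49 between the substitution mutant and the double transformant (adjusted p = 0.422). Both substitution arrays left remained above the double transformant. The part of substitution 1 in the result was not tested further.

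PUB24, one of 3 related ubiquitin ligase genes that dampen immune responses, had 70.3, 46.6 and 51.1 in the null and 80.2, 43.3 and 45.2 in the substitution mutant, against 29.3, 25.4 and 30.7 in the double transformant. All 6 mutant arrays lay above the double transformant, as they did for 4.13% of probe sets, and the difference of 0.85 ± 0.22 was not called (limma adjusted p = 0.109). Its relatives PUB22 and PUB23 overlapped between groups, and so did 2 calmodulin-like genes, CML37 (0.0992 to 11.8 over all arrays) and AT1G76640 (CML39, at most 2.31). The 2 called members were the cell wall genes XTH33 and EXLA1, both lower in the substitution mutant (log2 differences of -2.89 ± 0.43 and -2.85 ± 0.47, limma adjusted p = 0.0126 and 0.0221). Both lost their call without double transformant 2, double transformant 3, substitution 1 or substitution 2, with adjusted p between 0.0597 and 0.114, and over the 9 fits without 1 array their log2 differences ran from -3.40 to -2.48 and from -3.35 to -2.37. With both mutant groups together they differed by -2.29 ± 0.37 and -2.19 ± 0.41 (adjusted p = 0.013 and 0.0249). That call was lost for both without double transformant 2 (adjusted p = 0.0753 and 0.122) or double transformant 3 (0.0971 and 0.129), and for EXLA1 also without null mutant 1 (0.0512), substitution 1 (0.0746) or substitution 2 (0.0536). The direction in which these 2 genes lay was opposite to that of WRKY53.

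Of 51 listed salicylic acid and immune genes, 2 were measured. BIK1, a kinase downstream of immune receptors, averaged 125 ± 44.5 in the null mutant, 176 ± 13.5 in the substitution mutant and 159 ± 35.8 in the double transformant (SD, n = 3 each). EFR, a receptor for a bacterial elongation factor, ran from 0.551 to 16.5 over all arrays and overlapped between groups. The remaining salicylic acid genes were not analysed here.

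The neighbourhood of WRKY53 was described by the 11 loci with a named probe set among the 8 coding genes or pseudogenes on each side in the TAIR10.1 annotation, read by 12 probe sets. None was called, beside 0.0044% to 0.954% of all probe sets per comparison and direction. The median log2 difference was -0.05 in the null and -0.13 in the substitution mutant. The gene directly before WRKY53, 3xHMG-box2 (AT4G23800), encodes a chromosomal protein with HMG boxes. Its signals were 65.7, 75.7 and 65.9 in the null and 129, 134 and 110 in the substitution mutant, against 77.6, 72.2 and 88.6 in the double transformant. Like WRKY53 it had its 3 highest arrays in the substitution mutant, at a level well above the bacterial controls. Of all probe sets, 10.6% had the substitution arrays above those of the double transformant, and 5.6% above those of the null mutant. The share with both was not computed. The log2 difference from the double transformant was 0.62 ± 0.14 in the substitution mutant (limma adjusted p = 0.0901) and -0.19 ± 0.14 in the null mutant (adjusted p = 0.687), and the null mutant differed from the substitution mutant by -0.81 ± 0.14 (adjusted p = 0.171).

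The gene directly after WRKY53, AT4G23820, differed by 0.15 ± 0.24 in the null and -0.04 ± 0.24 in the substitution mutant. AT4G23870 and AT4G23880, the fifth and sixth genes after WRKY53, had all 6 mutant arrays above the double transformant, as had 4.13% of probe sets, with log2 differences of 0.87 ± 0.18 and 0.68 ± 0.26 in the null and 0.49 ± 0.18 and 0.82 ± 0.26 in the substitution mutant (limma adjusted p between 0.058 and 0.35). AT4G23760, the fifth gene before WRKY53, had 11.6, 3.76 and 4.32 in null mutant arrays, 2.02, 3.37 and 0.626 in the substitution mutant, and 9.94, 15.8 and 32.7 in the double transformant. All 6 mutant signals lay below the brightest bacterial control of their array, so no fold is given (limma adjusted p = 0.357 in the null and 0.0895 in the substitution mutant).

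**Figure D4:**
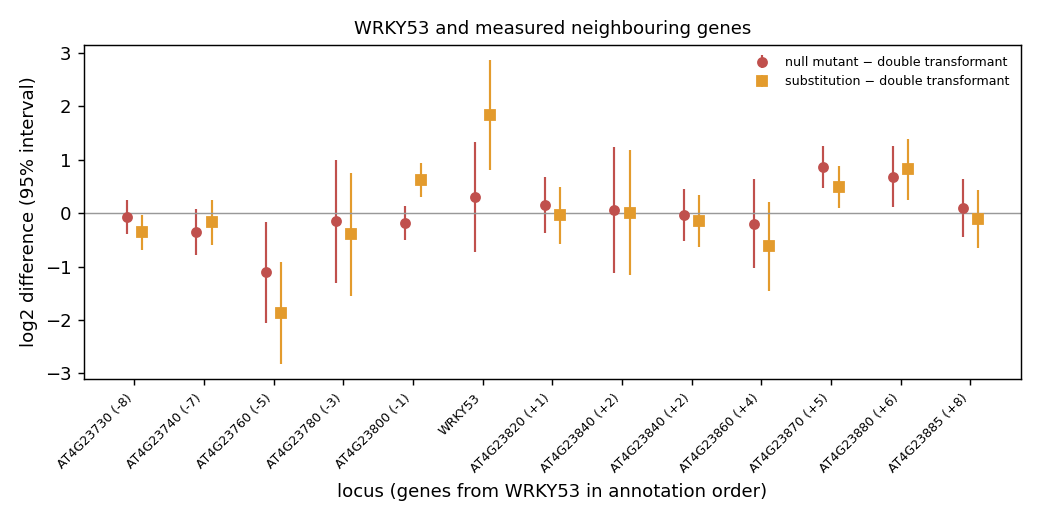
Log2 differences with 95% intervals of WRKY53 and the measured genes around it, in annotation order (number of genes from WRKY53 in brackets), for the null mutant and the substitution mutant, each against the double transformant. WRKY53 at 1.84 and AT4G23800 at 0.62 lie above 0 in the substitution mutant, while AT4G23870 and AT4G23880 are above 0 in both. AT4G23760 lies below 0 in both (-1.11 in the null and -1.87 in the substitution mutant), and AT4G23730 in the substitution mutant (-0.36). For WRKY53 and AT4G23760 the differences are of measured signals, some groups of which lay in the range of the bacterial controls.

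The genes most like WRKY53 were sought by Pearson correlation of log2 signals over the 9 arrays among 5988 probe sets with 1 named gene and a mean signal above the median of all. These values describe 9 arrays that share their groups, and the median correlation was -0.07. The highest were AT3G05730 (r = 0.96), AT3G06680 and AT5G58100 (0.95 each), AT1G01100 (0.93), AT2G40765, AT2G29290 and AT5G27700 (0.92 each) and CRR28 (0.90), a gene for editing of chloroplast transcripts. After group means were removed, their correlations with WRKY53 were between 0.74 and 0.94. The choice over the same 9 arrays already favours such values, so they are no separate evidence of likeness. On 6 of these arrays the WRKY53 signal lay below the brightest bacterial control. The lowest were AT1G53030 (-0.97), AT4G26240 (-0.95), AT4G09830 and AT5G44170 (-0.94 each). None of these 12 is on the lists above.

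AT3G05730 had 886, 851 and 592 in the null and 1400, 1180 and 1170 in the substitution mutant, against 601, 761 and 698 in the double transformant. Its signal lay far above that of the bacterial controls. The choice by likeness to WRKY53 on these arrays already favours genes high in the substitution mutant, so their differences are a description: 0.86 ± 0.17 for AT3G05730 and 0.84 ± 0.17 for AT2G29290 on the log2 scale (SE) between the substitution mutant and the double transformant. AT2G29290 had 770, 665 and 532 in the null mutant and 1090, 778 and 797 in the substitution arrays, against 530, 508 and 435 in the double transformant.

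**Figure D5:**
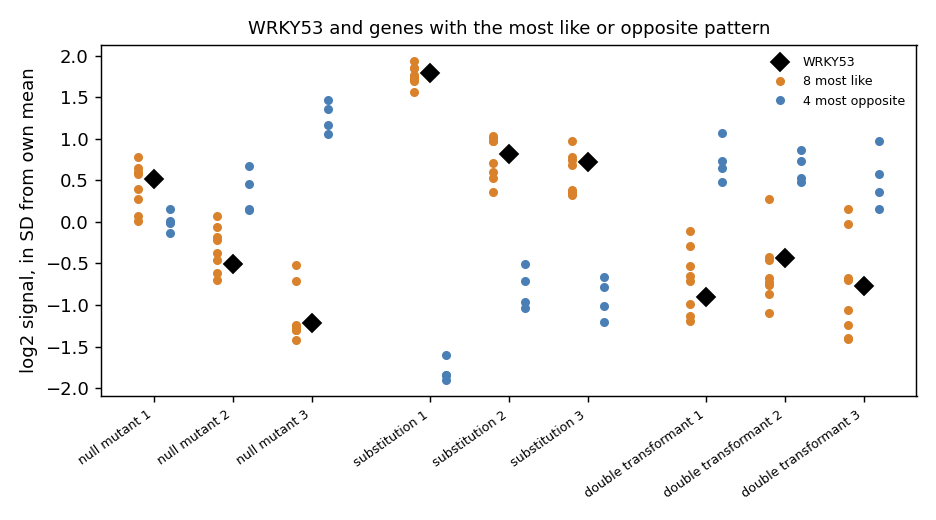
Log2 signal on each array, in SD from the gene's own mean, for WRKY53 (black diamonds), the 8 genes most like it (orange) and the 4 most opposite (blue). The genes were chosen for this pattern, which has substitution 1 highest and null mutant 3 lowest for WRKY53.

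The labelled whole plants were checked against tissue markers. The photosynthetic genes RCA, LHCB4.1 and PRK were bright on all arrays (2900 to 9010). The root hair genes EXPA7 and EXPA18 ran from 0.584 to 8.99, and the pollen genes ANX1 and ANX2 and the anther genes AMS and SHT were at most 24.1. SHT had 0.564, 1.11 and 9.86 in null mutant arrays, 0.958, 4.06 and 0.663 in the substitution mutant, and 13.6, 4.36 and 24.1 in the double transformant, and was not called (limma adjusted p = 0.414 in the null and 0.278 in the substitution mutant). ANX2 had 0.209, 0.679 and 0.929 in null mutant arrays, 0.816, 1.13 and 1.26 in the substitution mutant, and 7.13, 0.636 and 11.6 in the double transformant, and was not called either (0.353 and 0.414). PAP85, a seed storage gene, averaged 84.2 ± 57.9 in the null mutant, 95.9 ± 25.1 in the substitution mutant and 18.5 ± 15.1 in the double transformant (SD, n = 3 each). With both mutant groups together PAP85 differed by 2.18 ± 0.48 on the log2 scale (limma adjusted p = 0.0572). It passed the threshold without double transformant 1 (2.69, adjusted p = 0.0284) and without null mutant 1 (2.45, adjusted p = 0.0252), among other settings. With all arrays none of the 10 markers was called in any comparison, beside 0.0044% to 0.954% of all probe sets per comparison and direction. The part of PAP85 or other seed transcripts in the WRKY53 values was not tested. Double transformant 3 and null mutant 3 had the highest GAPDH 3' to 5' ratios, a measure of RNA breakdown (1.95 in null mutant 3 and 2.15 in double transformant 3, against 1.38 to 1.82 in the other arrays). WRKY53 had its lowest signal on null mutant 3. Without these 2 arrays together the fitted WRKY53 difference of the substitution mutant from the double transformant was 1.80, and it was not called (limma adjusted p = 0.219), nor was that of the null mutant (0.776). The labels give double transformant 1 a night humidity of 35% and the other 8 arrays 53%. Without double transformant 1 the fitted WRKY53 difference of the substitution mutant from the double transformant was 1.74. It was not called (limma adjusted p = 0.196), nor was that of the null mutant (0.934). The part of humidity was not tested further.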

How the data were processed

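The deposited intensity values are linear MAS5 probe set signals, with MAS5 and GCOS named per the submitters' processing notes and their versions not stated. Labelling used a 3' IVT kit per the labels' protocols. Each array's trimmed mean signal was 100.01, so arrays were scaled before deposit.

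Groups and replicate numbers came from sample titles. Of 22810 probe sets, 64 controls were left out. Signals were transformed as log2(signal + c), c = 4.03 being the 20th percentile of all values. All 9 arrays entered 1 limma 3.58.1 model (R 4.3.3) whose variance prior follows intensity, and a call is an adjusted p under 0.05 (Benjamini-Hochberg, 22746 probe sets). The fit was tested on simulated data. WRKY53 also had exact permutation tests (scipy 1.17.1). Gene names are those of the platform annotation, brought up to date with RefSeq (TAIR10.1): 13513 probe sets had 1 gene, 503 several, and 8730 are unnamed here.

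The gene and all lists were chosen with earlier results of these data known. Measured list members were all named where 12 or fewer, and likeness took the 8 highest and 4 lowest correlations. The neighbours and bacterial controls were added after values were seen. Arrays with the same number had deviations from their group means that correlated at -0.0409 to 0.154, so numbers were not treated as pairs. Alternatives were other offsets, filters, scalings, variance priors, array weights, blocks and left-out arrays.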

Additional observations from a re-analysis of the deposited data

How the results depend on the processing

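WRKY53 was called in none of the 4 comparisons under any alternative run. Its differences here are fitted ones of measured log2 signals, of which those of the null mutant and the double transformant lay in the bacterial control range. Against the double transformant, the substitution mutant was higher in WRKY53 in all of them, by 0.61 to 2.48 over 14 alternatives (adjusted p between 0.0676 and 0.322) and by 1.49 to 2.04 without single arrays (0.0696 to 0.422). The null mutant was lower than the substitution mutant throughout, from -2.20 to -0.52 and, without single arrays, at -1.12 or lower. Both mutant groups together stayed above the double transformant, at 0.35 to 1.42 and 0.84 to 1.28. In the null mutant against the double transformant the sign turned, at -0.26 without the rpt arrays, with a range of -0.16 to 0.72 without single arrays. The replicate block gave 1.84 (adjusted p = 0.0809), 0.31, 1.07 and -1.53 for the substitution mutant, the null mutant, both and the null mutant against the substitution mutant, and changed no call of WRKY53. Without dim probe sets WRKY53 itself falls out, since its mean is below the median.

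The number of probe sets called ran from 45 to 339 around 173 in the null mutant, 38 to 373 around 170 in the substitution mutant, 69 to 395 around 271 in both together and 0 to 48 around 9 between the mutants. The highest counts came without null mutant 2 in the first and last, with array weights in the second and with the replicate block (395) in the third. The lowest were those of the unmoderated test, except between the mutants, where 6 alternatives gave 0. Between the mutants 1447 probe sets had an unadjusted limma p under 0.05.

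In the substitution mutant XTH33 kept its call in 12 and EXLA1 in 11 of 15 alternatives that left out no single array. PAP85 in both mutant groups together passed the threshold with an offset of 1.01 (adjusted p = 0.0453), without dim probe sets (0.0446), with array weights (0.0421) and without the rpt arrays (0.00926). Of 49 other named genes, 20 changed sign somewhere in the comparison of both mutant groups with the double transformant, and none of these was called. PRK was at -0.02 with quantile normalization. With centred medians ATG8B was at -0.06, PRK at -0.06 and AT1G01100 at -0.01. With array weights WRKY6 was at 0.01 and ATG8B at -0.01. Without the rpt arrays WRKY6 was at 0.10, NOL at 0.00, BIK1 at 0.08, PUB22 at 0.21, PRK at -0.13 and WRKY47 at 0.16. Without double transformant 3 and null mutant 3 together SAG101 was at -0.01, WRKY6 at 0.04, ATG8B at -0.06, RCA at 0.04, EXPA18 at -0.08 and ANX1 at 0.01. Without single arrays the ranges were -0.22 to 0.08 for WRKY6, -0.23 to 0.06 for BIK1, -0.27 to 0.59 for STZ, -0.08 to 0.08 for PRK, -0.35 to 0.03 for WRKY47, 0.00 to 0.28 for ATG8A (listed as APG8A), -0.05 to 0.08 for ATG8B, -0.67 to 0.05 for PUB23, -0.32 to 0.09 for RCA, -0.13 to 0.03 for EIN3, -0.16 to 0.01 for ATG8E, -0.16 to 0.75 for EFR, -0.15 to 0.27 for WRKY22 and 0.00 to 0.16 for AT1G76640. The causes were not tested. Limits are the number of arrays and, for WRKY53, a signal within the bacterial control range on 6 of 9 arrays.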
